A study of Mus musculus with 10 samples.

Results

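The genes described here encode inward-rectifier (Kcnj), two-pore (Kcnk), calcium-activated (Kcnma, Kcnmb, Kcnn) and sodium-activated (Kcnt) potassium channels. They were chosen by symbol alone, as every gene of these families with a probe set that named no other gene, and 41 of the 30142 genes on the array met this rule. None of the 41 had more than 1 such probe set. Kcnu1, which belongs by sequence to the Slo channels but encodes the alkalinity-gated Slo3 channel of sperm, is included by its symbol.

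RNA came from mouse brain tissue at the site of a controlled cortical impact, a blow delivered to the surface of the brain, and from the matching region of the other hemisphere. There were 5 ipsilateral samples and 5 contralateral samples, each hybridised to 1 whole-transcript array. All samples were taken 7 days after a 2 mm impact from adult mice that the labels describe as of both sexes and 8 to 12 weeks old, with no strain, genotype or drug given. The contralateral tissue came from injured animals, so a change of that hemisphere itself was not measured.

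Potassium channels set the resting potential of neurons and glia and end their electrical activity. Inward rectifiers pass potassium near the resting potential, and two-pore channels carry the background leak. Channels of the BK, SK and Slo2 types open when calcium or sodium enters during firing. In bulk tissue, a smaller share of cells of one type and less RNA per cell cannot be told apart.

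At the impact site 9 of the 41 genes fell and 2 rose. The largest falls were those of Kcnt2, a sodium-activated channel (log2 fold change -1.57), Kcnk4, a mechanically gated leak channel (-1.33), and Kcnj9, a G-protein-gated inward rectifier (-1.29), and these were the 3 called genes that differed at least 2-fold. The rises were those of Kcnn3, a small-conductance calcium-activated channel (0.73), and Kcnj16, an inward-rectifier subunit of glia and epithelia (0.63). A gene was called at an adjusted p under 0.05 in limma, with Benjamini-Hochberg adjustment over all 30142 genes. The called share was 26.8% of the 41 genes, against 5.55% of all genes. By direction, 22.0% of the 41 genes were called lower, against 4.33% of all genes, and 4.88% were called higher, against 1.22%. The median log2 fold change was -0.07 over the 41 genes and 0.02 over all genes, and 26 of the 41 had negative fold changes.

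**Figure D1:**
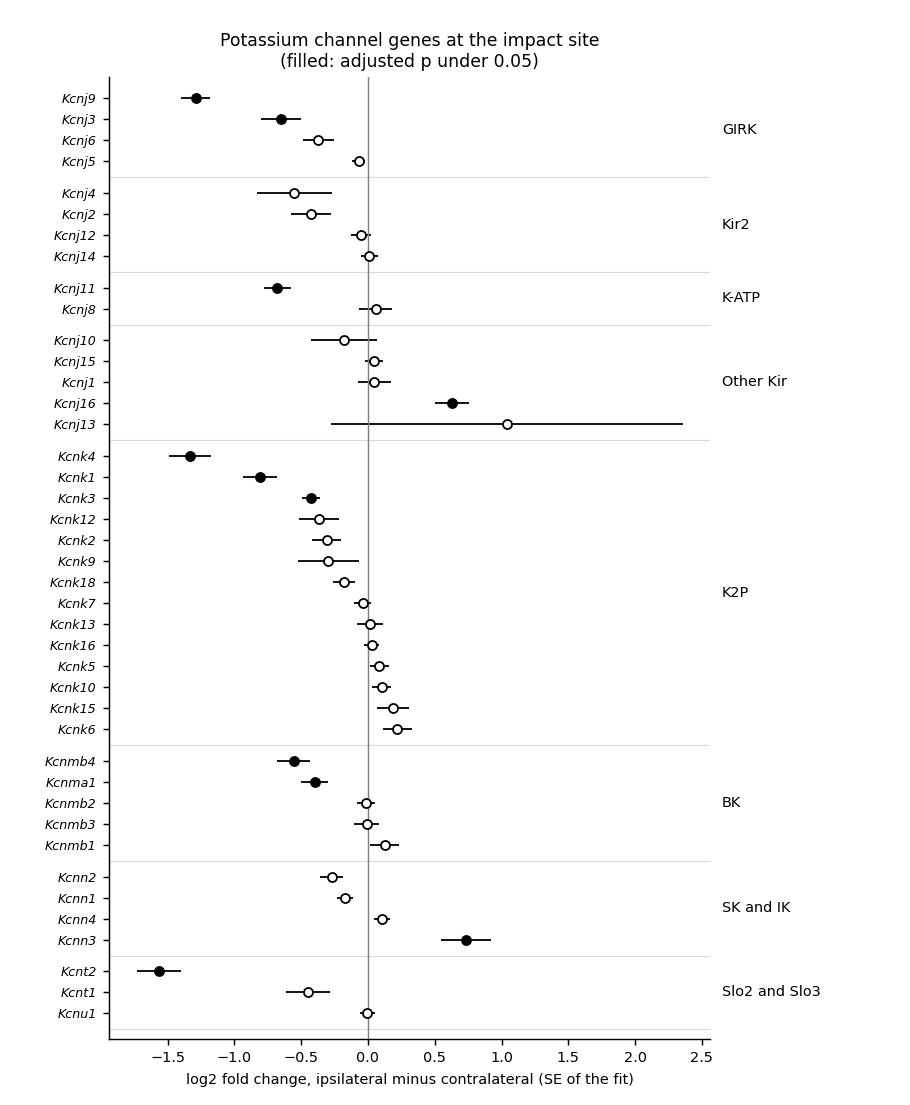
Log2 fold change of each of the 41 genes, ipsilateral minus contralateral, with the SE of the limma fit (x axis) by channel subfamily (rows). Filled points passed an adjusted p of 0.05. The 9 filled points left of 0 are spread over GIRK, K-ATP, K2P, BK and Slo2 genes, and the 2 to the right are Kcnj16 and Kcnn3.

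The promoter windows of the 3 largest falls and the largest called rise are shown. Each runs from 250 bases before the annotated start to 50 bases after it. They are RefSeq sequences of GRCm38.p6 and were matched by symbol, with Kcnj9 at chr1:172329273-172329572 (minus strand), Kcnt2 at chr1:140245468-140245767 (plus strand), Kcnk4 at chr19:6934466-6934765 (minus strand) and Kcnn3 at chr3:89519914-89520213 (plus strand).
Kcnj9: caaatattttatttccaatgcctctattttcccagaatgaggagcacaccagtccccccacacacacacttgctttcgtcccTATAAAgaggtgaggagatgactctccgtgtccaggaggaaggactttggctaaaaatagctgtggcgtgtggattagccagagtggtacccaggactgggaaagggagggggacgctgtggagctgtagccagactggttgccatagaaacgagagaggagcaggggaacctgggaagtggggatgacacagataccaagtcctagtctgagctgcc
Kcnt2: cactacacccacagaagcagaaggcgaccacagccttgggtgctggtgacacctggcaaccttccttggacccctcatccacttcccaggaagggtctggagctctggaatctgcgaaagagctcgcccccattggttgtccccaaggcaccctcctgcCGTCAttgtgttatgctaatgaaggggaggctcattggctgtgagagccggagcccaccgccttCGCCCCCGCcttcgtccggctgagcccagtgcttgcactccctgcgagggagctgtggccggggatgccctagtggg
Kcnk4: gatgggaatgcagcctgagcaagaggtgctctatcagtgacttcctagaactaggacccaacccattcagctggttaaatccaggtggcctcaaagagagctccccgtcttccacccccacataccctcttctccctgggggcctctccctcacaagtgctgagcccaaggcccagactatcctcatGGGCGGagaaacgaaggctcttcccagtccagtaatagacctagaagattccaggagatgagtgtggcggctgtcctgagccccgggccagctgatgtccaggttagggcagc
Kcnn3: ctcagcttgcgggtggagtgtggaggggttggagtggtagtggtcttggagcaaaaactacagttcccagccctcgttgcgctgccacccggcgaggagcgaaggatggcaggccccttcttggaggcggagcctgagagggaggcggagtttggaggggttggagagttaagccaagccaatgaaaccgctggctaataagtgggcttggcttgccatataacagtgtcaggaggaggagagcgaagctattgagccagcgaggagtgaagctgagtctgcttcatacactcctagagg
Capitals mark exact matches, on either strand, to any of 7 short motifs: the GC box GGGCGG, the cyclic AMP response element (CRE) TGACGTCA, its core TGACG, the TATA box TATAAA, the AP-1 site TGANTCA, the EGR site GCGNGGGCG and the E-box CACGTG. The core lies within each full CRE.

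The marked matches differ between the falling genes. Kcnj9 holds a TATA box 168 bases before the start, Kcnt2 a CRE core 91 bases and an EGR site 27 bases before it, and Kcnk4 a GC box 63 bases before it, while Kcnn3 holds none of these letters. Of the 41 genes, 33 had a promoter window, with 42 windows in all, because some genes have several starts. A GC box was found in 18 of the 42 windows (42.9%), against 35.7% of all 32851 windows of this length, and a CRE core in 7 (16.7%), against 20.8%. The full CRE was found in 0 of the 42 windows, against 1.79% of all windows. A TATA box was found in 4 windows of these genes (9.52%), against 13.6%, an EGR site in 2 (4.76%), against 5.55%, an AP-1 site in 1 (2.38%), against 7.81%, and an E-box in 3 (7.14%), against 7.15%. A match is a description of the letters and shows no binding.

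The G-protein-gated inward rectifiers (GIRK channels) open when receptors such as GABA-B release G-protein subunits, and they hyperpolarise neurons. Kcnj9, which encodes GIRK3, stood at 9.60, 9.89, 9.78, 9.88 and 9.83 log2 signal on ipsilateral arrays 1 to 5, against 11.17, 10.80, 11.19, 10.91 and 11.36 on contralateral arrays 1 to 5. Every ipsilateral array lay more than the whole ipsilateral spread below the lowest contralateral one. The fall was 2.45-fold (log2 fold change -1.29 ± 0.11, SE; adjusted p = 0.000432 in limma).

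Kcnj3, the widespread partner subunit GIRK1, stood at 12.66, 12.20, 12.14, 11.67 and 12.05 on the ipsilateral arrays, against 12.98, 12.73, 12.82, 12.63 and 12.81 on the contralateral ones. Ipsilateral array 1 overlapped the contralateral range, and the other 4 lay below it. The log2 fold change was -0.65 ± 0.15 (adjusted p = 0.0334 in limma), and the call ended without any 1 of ipsilateral arrays 2, 3 and 5 or contralateral arrays 1, 2, 3 and 5 (adjusted p up to 0.0906). Kcnj6, which encodes GIRK2, stood at 7.79 ± 0.24 ipsilaterally and 8.16 ± 0.14 contralaterally (mean ± SD, n = 5 each). Its groups did not overlap, but it did not pass the test (-0.37, adjusted p = 0.0919). Kcnj5, which encodes GIRK4 and is best known from heart and adrenal gland, was dim at 3.76 and 3.82.

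The within-array difference between Kcnj6 and Kcnj9 changed with side by 0.92 ± 0.19 on the log2 scale (exact permutation test, two-sided, p = 0.00794, which 5 arrays against 5 cannot go below; 0.0298 adjusted over 15 pairs). The log2 signal of Kcnj9 therefore fell more than that of Kcnj6, at mean signals of 10.44 and 7.98. The pair tests compare different probe sets at unlike signal, so they do not measure which RNA fell more. The call for Kcnj6 and Kcnj9 ended without contralateral array 1, 2 or 3 (adjusted p = 0.0595 each), where the difference was 0.87 to 1.01. The exact permutation p of this pair was 0.0159 in each of these 3 fits. With an array left out the exact test has fewer splits but the same smallest p. Kcnj3 and Kcnj9 differed by 0.64 (exact permutation p = 0.0238, adjusted 0.0510), which passed without ipsilateral array 4 (adjusted 0.0298). Kcnj3 and Kcnj6 differed by -0.28 (exact permutation p = 0.0714, adjusted 0.107), which passed without ipsilateral array 1 (adjusted 0.0238).

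Of 9 genes for G proteins and regulators that act on GIRK channels, 3 fell and 0 rose. These were the regulators of G-protein signalling Rgs6 (-1.08 ± 0.18) and Rgs7 (-0.52 ± 0.13), which speed the closing of GIRK channels, and their membrane anchor Rgs7bp (-0.70 ± 0.09), with adjusted p of 0.0075, 0.0387 and 0.0020 in limma. The G-protein subunit Gnb5, their obligate partner, stood at 9.97 ± 0.27 ipsilaterally and 10.39 ± 0.10 contralaterally (adjusted p = 0.0672), and the median of the 9 genes was -0.19. Of 7 measured receptors that open GIRK channels, only the mu opioid receptor Oprm1 passed, upward (adjusted p = 0.0225), at 5.08 ± 0.12 ipsilaterally and 4.77 ± 0.06 contralaterally. Its contralateral mean was within the range of dim receptor and keratin-associated genes (95th percentile 4.84), so the size of its rise is not given. The GABA-B receptor subunit Gabbr2 stood at 14.95 ± 0.34 ipsilaterally and 15.51 ± 0.14 contralaterally (-0.56, adjusted p = 0.0559), and the median of the 7 was -0.26. Adora1 had no probe set that named it alone.

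**Figure D2:**
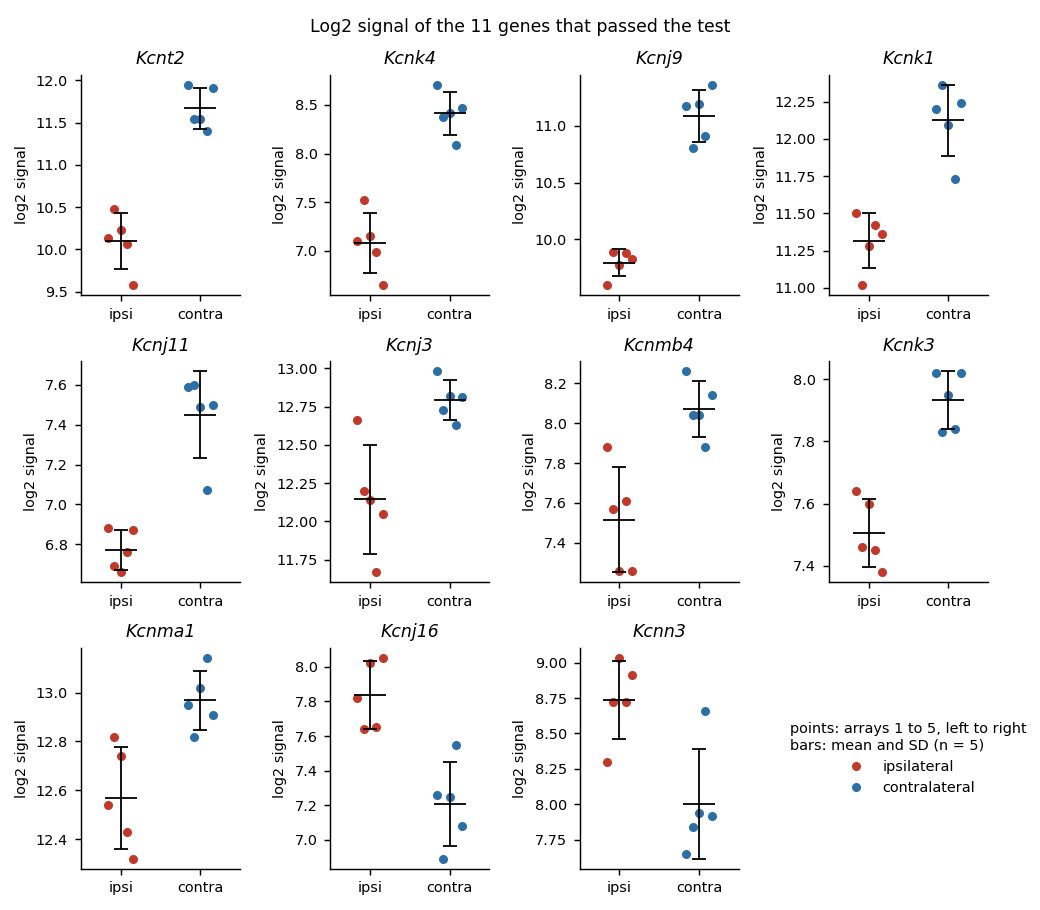
Log2 signal (y axis, scaled per gene) of the 11 called genes on each ipsilateral and contralateral array (points), with the mean and SD (bars, n = 5 per side). The groups are apart for Kcnt2, Kcnk4, Kcnj9, Kcnk1, Kcnj11, Kcnk3 and Kcnj16, and meet or overlap for Kcnj3, Kcnmb4, Kcnma1 and Kcnn3.

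ATP-sensitive (K-ATP) channels join a Kir6 pore to a sulfonylurea receptor and open when cellular ATP is low. Kcnj11, which encodes the Kir6.2 pore of neurons, stood at 6.88, 6.69, 6.66, 6.76 and 6.87 ipsilaterally, against 7.59, 7.60, 7.49, 7.07 and 7.50 contralaterally. No array overlapped, although contralateral array 4 stood well below its own group. The log2 fold change was -0.68 ± 0.10 (adjusted p = 0.00431 in limma). Abcc8, the neuronal sulfonylurea receptor SUR1, also fell, at 6.89 ± 0.15 ipsilaterally and 7.75 ± 0.22 contralaterally, without overlap (-0.87, adjusted p = 0.0021).

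The vascular counterparts did not pass. Kcnj8, the Kir6.1 pore found in pericytes and smooth muscle, stood at 5.67 ± 0.25 ipsilaterally and 5.61 ± 0.17 contralaterally (adjusted p = 0.841), and Abcc9, its SUR2 partner, at 7.33 ± 0.26 and 7.62 ± 0.21 (adjusted p = 0.246). The difference between Kcnj8 and Kcnj11 was 0.74 ± 0.14 (exact permutation p = 0.00794, adjusted 0.0298). It no longer passed without ipsilateral arrays 2 or 5 or contralateral arrays 1, 2 or 3 (adjusted p = 0.0595 each). Its unadjusted exact permutation p stayed at 0.00794 without contralateral array 1, 2 or 3, and was 0.0159 without ipsilateral array 2 or 5. None of 7 pericyte markers passed, with scores (mean log2 signal of the markers) of 7.14 to 7.70 ipsilaterally and 6.99 to 7.24 contralaterally. All 4 vascular smooth muscle markers had positive fold changes and 0 passed, with scores of 6.04 to 7.98 ipsilaterally and 5.98 to 6.19 contralaterally. The part of these cells in the values of Kcnj8 was not tested.

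Kir2 channels are the strong rectifiers of the resting membrane, and none of their 4 genes passed. Kcnj2 (Kir2.1) stood at 6.81, 6.15, 6.73, 6.70 and 6.51 ipsilaterally, against 7.38, 7.17, 6.95, 6.82 and 6.71 contralaterally. Ipsilateral arrays 1 and 3 lay above the lowest contralateral array, and the fold change was -0.43 (adjusted p = 0.138). Kcnj4 (Kir2.3) stood at 10.15, 8.80, 8.95, 8.90 and 8.41 ipsilaterally, against 9.44, 9.20, 9.77, 9.97 and 9.59 contralaterally. Ipsilateral array 1 was the highest of all 10 and the other 4 ipsilateral arrays were the lowest, and the fold change of -0.55 did not pass (adjusted p = 0.293), and without ipsilateral array 1 it was -0.83 (adjusted p = 0.0155). Kcnj12 (Kir2.2) and Kcnj14 (Kir2.4) had fold changes of -0.05 and 0.01.

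The remaining inward rectifiers belong to glia and epithelia. Kcnj16, which encodes Kir5.1 and joins Kir4.1 in astrocytes, rose. It stood at 7.82, 7.64, 8.02, 7.65 and 8.05 ipsilaterally, against 7.26, 6.89, 7.25, 7.55 and 7.08 contralaterally. The lowest ipsilateral array lay above the highest contralateral one. The rise was 1.55-fold (log2 fold change 0.63 ± 0.13, adjusted p = 0.0176 in limma). It no longer passed without contralateral array 5 (adjusted p = 0.0504) or with the replicate number as a block (0.0529).

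Kcnj10, the Kir4.1 pore that clears potassium into astrocytes and oligodendrocytes, did not rise with it. It stood at 11.44, 10.61, 10.92, 11.17 and 11.90 ipsilaterally, against 11.56, 11.74, 11.55, 10.73 and 11.37 contralaterally. Both sides spread over more than 1 log2 unit and overlapped widely (-0.18, adjusted p = 0.732). The difference between Kcnj10 and Kcnj16 was -0.81 ± 0.33 (exact permutation p = 0.0397, adjusted 0.0744), and it passed without contralateral array 4 (-1.06, adjusted p = 0.0397).

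Of 9 measured genes of astrocytic potassium and glutamate clearance, the water channel Aqp4 rose (0.95 ± 0.18, adjusted p = 0.0117 in limma) and 8 had positive fold changes, with a median of 0.32. The glutamate transporter Slc1a3 (0.47, adjusted p = 0.0623) and the gap junction gene Gja1 (0.32, adjusted p = 0.0863) did not pass, though neither overlapped between sides. The score of 7 astrocyte markers was 10.41 to 11.40 ipsilaterally and 10.13 to 10.53 contralaterally. Of these markers 5 had positive fold changes, with Gfap the largest (2.07, adjusted p = 0.0814 in limma, not called). Aldh1l1 (-0.36) and Slc1a2 (-0.15) had negative ones and were not called. The oligodendrocyte marker score was 9.61 to 10.92 ipsilaterally and 10.20 to 11.64 contralaterally. All 7 markers had negative fold changes (median -1.19), and 1 was called, Opalin. The part of either cell type in the values of Kcnj10 and Kcnj16 was not tested.

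Kcnj13, the Kir7.1 channel of choroid plexus and retinal pigment epithelium, varied most of the 41 genes. It stood at 7.57, 12.32, 8.52, 9.83 and 9.41 ipsilaterally, against 6.33, 13.22, 7.16, 9.25 and 6.49 contralaterally. On both sides the arrays numbered 2 and 4 were the highest. The fold change was 1.04 ± 1.32 (adjusted p = 0.711). Leaving out single arrays moved it between 0.34 (without ipsilateral array 2) and 2.22 (without contralateral array 2), and it was 0.50, 0.71 and 0.54 without contralateral arrays 1, 3 and 5. It passed in none of these fits (adjusted p from 0.221 to 0.926).

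The same arrays were high in choroid plexus markers, the epithelium that secretes cerebrospinal fluid. The score of 8 markers, none of which passed the test, was 8.40 and 7.08 on ipsilateral arrays 2 and 4 and 8.99 and 6.73 on contralateral arrays 2 and 4. On the other 6 arrays it lay between 5.64 and 5.77. On those 6 arrays Kcnj13 was higher on every ipsilateral array than on any contralateral one. Without the arrays numbered 2 and 4 its fold change was 1.84 (adjusted p = 0.124 in limma). The even score there hides single markers that differed by side in opposite directions. Ttr was lower on every ipsilateral array (5.83, 6.80 and 6.59, against 7.28, 7.55 and 7.19), as was the dim Folr1. Aqp1 was higher on every one (5.79, 4.65 and 4.73, against 4.61, 4.43 and 4.51), and the other markers overlapped. The part of choroid plexus tissue in the side difference of Kcnj13 was not tested. Kcnj1 (Kir1.1) and Kcnj15 (Kir4.2), known from kidney, had fold changes of 0.05 and 0.04 at mean signals of 3.65 to 4.17.

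**Figure D3:**
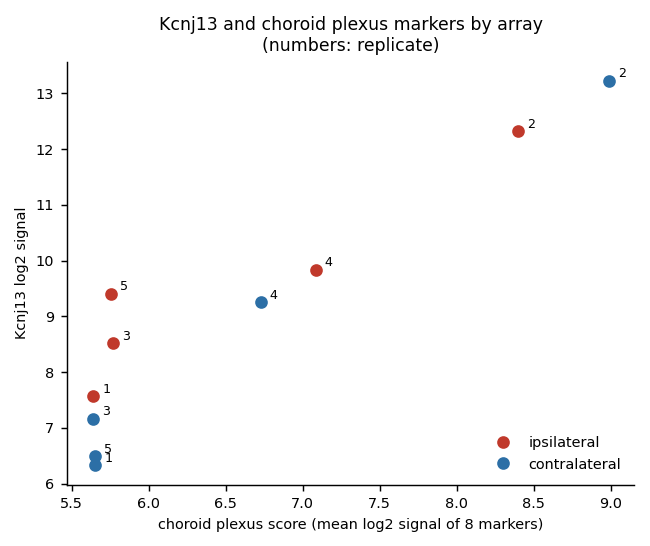
Log2 signal of Kcnj13 (y axis) against the mean log2 signal of 8 choroid plexus markers (x axis), 1 point per array with its replicate number. The arrays numbered 2 and 4 lie right of the other 6, whose scores run from 5.64 to 5.77 while Kcnj13 runs from 6.33 to 9.41.

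Of the 14 two-pore (K2P) genes, 3 fell and 0 rose. Kcnk4, which encodes the mechanosensitive and lipid-sensitive channel TRAAK, stood at 7.10, 7.52, 7.15, 6.99 and 6.65 ipsilaterally, against 8.71, 8.38, 8.42, 8.09 and 8.47 contralaterally. The highest ipsilateral array lay below the lowest contralateral one. The fall was 2.52-fold (log2 fold change -1.33 ± 0.15, adjusted p = 0.00152 in limma).

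Kcnk1, which encodes the weakly rectifying channel TWIK-1 of neurons and astrocytes, stood at 11.50, 11.02, 11.28, 11.42 and 11.36 ipsilaterally, against 12.20, 12.36, 12.09, 11.73 and 12.24 contralaterally, again without overlap (-0.81 ± 0.12, adjusted p = 0.00487 in limma). Kcnk3, the acid-sensitive channel TASK-1, stood at 7.64, 7.46, 7.60, 7.45 and 7.38 ipsilaterally, against 8.02, 7.83, 7.95, 7.84 and 8.02 contralaterally. Its arrays were also apart, and its change was smaller (-0.43 ± 0.07, adjusted p = 0.00638 in limma). Without the arrays numbered 2 and 4, Kcnk3 did not pass (adjusted p = 0.0823), while Kcnk4 and Kcnk1 did.

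The close relatives of these channels did not pass. Kcnk2 (TREK-1), a stretch-gated channel like TRAAK, had a fold change of -0.31 (adjusted p = 0.127), and its paralogue Kcnk10 (TREK-2) one of 0.10 (adjusted p = 0.468). These paralogues differed by -0.41 ± 0.13 (exact permutation p = 0.0159, adjusted 0.0397). That difference did not pass with quantile scaling (adjusted p = 0.0850) or without any 1 of the arrays other than ipsilateral array 3 and contralateral array 5 (up to 0.0680). Kcnk9 (TASK-3) had a fold change of -0.30 (adjusted p = 0.507), and the difference between Kcnk3 and Kcnk9 was -0.13 (exact permutation p = 0.659, adjusted 0.706).

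Kcnk12 (THIK-2) stood at 8.06 on ipsilateral array 1 and at 7.23 to 7.39 on the other 4 ipsilateral arrays, against 7.63 to 8.00 contralaterally. Its fold change was -0.37 (adjusted p = 0.191), and -0.52 without ipsilateral array 1 (adjusted p = 0.00628). Kcnk13 (THIK-1), the background channel of microglia, had a fold change of 0.02 (adjusted p = 0.943). None of 7 microglial markers passed, although all 7 had positive fold changes (median 0.77). Their score was 8.60 to 10.004 ipsilaterally and 8.21 to 8.78 contralaterally. The difference between Kcnk12 and Kcnk13 was -0.38 (exact permutation p = 0.0476, adjusted 0.0794, and 0.0446 without ipsilateral array 1).

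Kcnk6 (TWIK-2) had a fold change of 0.22 (adjusted p = 0.272). The other 5 two-pore genes, Kcnk5, Kcnk7, Kcnk15, Kcnk16 and Kcnk18, had fold changes from -0.18 to 0.19. All 5, with Kcnj1, Kcnj5, Kcnj15, Kcnn4 and Kcnu1, had mean signals between 3.25 and 4.56. That is at or under the 95th percentile (4.84) of 1800 genes for olfactory, vomeronasal and taste receptors and hair keratin-associated proteins, so signal above background was not shown for these 10 genes. Of the 18112 genes brighter than that percentile, 8.88% were called. None of 6 genes whose products bind or traffic two-pore channels passed, with Vapb (-0.18, adjusted p = 0.0569) and Vapa (-0.18, adjusted p = 0.217) having the strongest statistics and a median of -0.01.

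BK channels open on calcium and depolarisation and shape the action potential. Kcnma1, their only pore gene, stood at 12.54, 12.82, 12.74, 12.43 and 12.32 ipsilaterally, against 12.95, 12.82, 13.02, 13.14 and 12.91 contralaterally. The groups touched at 12.82. The fall was the smallest of the 9 (-0.40 ± 0.10, adjusted p = 0.0495 in limma), and it passed in 8 of 21 alternatives. Of the fits that left out 1 array, it passed only without ipsilateral arrays 2 or 3 (otherwise up to 0.116).

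Kcnmb4, the neuronal BK beta subunit that slows gating, stood at 7.88, 7.57, 7.26, 7.61 and 7.26 ipsilaterally, against 8.26, 8.04, 8.04, 7.88 and 8.14 contralaterally. Ipsilateral array 1 equalled contralateral array 4, and the other ipsilateral arrays were lower. The fold change was -0.56 ± 0.12 (adjusted p = 0.0260 in limma), and the call ended without ipsilateral arrays 2 or 5 or contralateral arrays 1, 2, 3 or 5 (up to 0.0734). Kcnmb1, the smooth muscle beta subunit, and Kcnmb2 and Kcnmb3, which confer inactivation, had fold changes of 0.12, -0.01 and -0.01.

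The difference between Kcnma1 and Kcnmb2 was -0.38 ± 0.10 (exact permutation p = 0.00794, adjusted 0.0298, and 0.0595 without contralateral array 1, 2 or 3 and with quantile scaling). That between Kcnma1 and Kcnmb4 was 0.16 (exact permutation p = 0.397, adjusted 0.458). Of 6 measured partners of BK and SK channels, Lrrc26, a BK gamma subunit, passed upward (0.33, adjusted p = 0.0386), at 3.90 and 3.57, where signal above background was not shown, and the median was -0.065. Of 5 calcium channel genes that feed these channels, Cacna1a, the P/Q-type pore, fell (-0.92 ± 0.12, adjusted p = 0.0020 in limma), and the median was 0.09.

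SK channels open on calcium alone. Kcnn3 (SK3) stood at 8.30, 8.72, 9.03, 8.72 and 8.91 ipsilaterally, against 7.65, 7.84, 7.94, 8.66 and 7.92 contralaterally. Contralateral array 4 lay among the ipsilateral values, and the other 4 contralateral arrays lay below all of them. The log2 fold change was 0.73 ± 0.19 (adjusted p = 0.0490 in limma). Of the fits that left out 1 array, Kcnn3 passed only without ipsilateral array 1 or contralateral array 4 (otherwise up to 0.120), and it did not pass with each array centred on its median (0.0633) or with the replicate block (0.0569).

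Neither Kcnn1 (SK1) nor Kcnn2 (SK2) passed (-0.17 and -0.27, adjusted p = 0.128 and 0.0890). Kcnn1 did not overlap between sides, at 6.05 to 6.21 ipsilaterally and 6.22 to 6.42 contralaterally. Kcnn4, the intermediate-conductance channel of immune cells, had a fold change of 0.11 (adjusted p = 0.371). The difference between Kcnn2 and Kcnn3 was -1.01 ± 0.27 (exact permutation p = 0.0159, adjusted 0.0397), and it did not pass with quantile scaling (0.0595) or without any 1 of ipsilateral arrays 2 to 5 or contralateral arrays 1, 2, 3 and 5 (up to 0.0794). Kcnn1 and Kcnn2 differed by 0.10 (exact permutation p = 0.294, adjusted 0.367).

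Sodium-activated Slo2 channels open as sodium accumulates during firing. Kcnt2 (Slo2.1, or Slick) stood at 10.14, 10.48, 10.23, 10.07 and 9.58 ipsilaterally, against 11.95, 11.54, 11.54, 11.40 and 11.91 contralaterally. Every ipsilateral array lay below every contralateral one. This was the largest fall of the 41 genes (2.96-fold, log2 fold change -1.57 ± 0.16, adjusted p = 0.000994 in limma). Kcnt1 (Slo2.2, or Slack) stood at 8.70, 8.24, 9.04, 8.24 and 8.07 ipsilaterally, against 9.10, 8.78, 8.91, 8.85 and 8.89 contralaterally. Ipsilateral array 3 lay among the contralateral values, and the fold change of -0.45 did not pass (adjusted p = 0.154, and 0.0246 without ipsilateral array 3). The paralogues differed by 1.12 ± 0.20 (exact permutation p = 0.00794, adjusted 0.0298, and 0.0595 without contralateral array 1, 2 or 3). Kcnu1 (Slo3) stood at 4.54 on both sides.

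**Figure D4:**
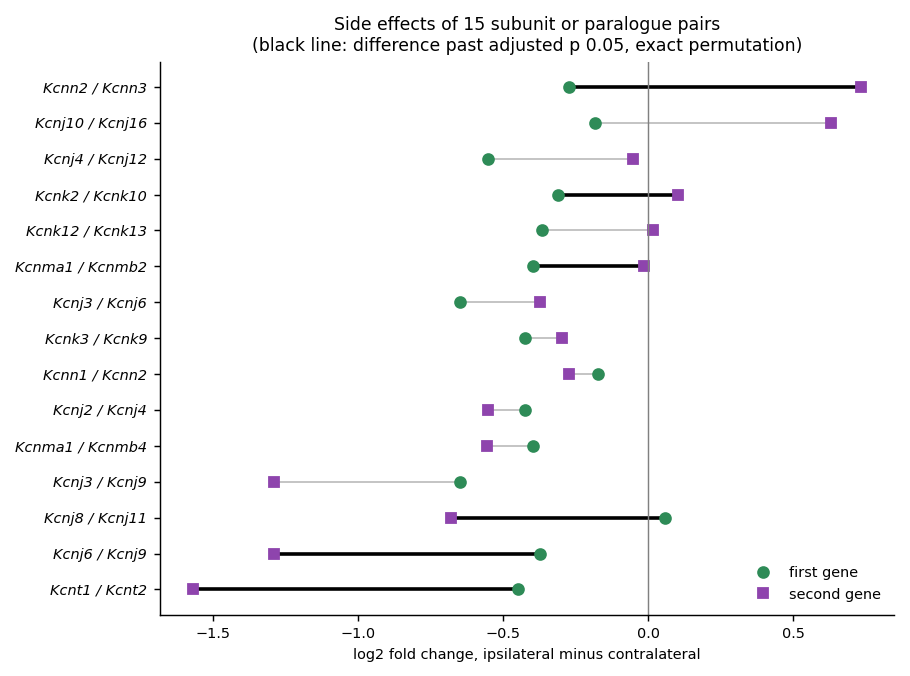
Log2 fold changes, ipsilateral minus contralateral (x axis), of both genes of 15 pairs that co-assemble or are close paralogues (rows), with circles for the first and squares for the second gene named. Black lines mark the 6 pairs whose difference passed after adjustment over 15 pairs in an exact permutation test.

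Over the 15 pairs, 6 differences passed after adjustment. The 2 pairs of Kir2 genes also compared did not differ past the threshold (Kcnj2 and Kcnj4 by 0.13, adjusted p = 0.738; Kcnj4 and Kcnj12 by -0.50, adjusted p = 0.152, and 0.0238 without ipsilateral array 1; exact permutation tests). In the RefSeq gene order, 5 pairs of the 41 genes lie next to each other with no other protein-coding gene between them. Kcnj9 (-1.29) is next to Kcnj10 (-0.18), and Kcnj16 (0.63) is next to Kcnj2 (-0.43). The other adjacent pairs were Kcnj6 (-0.37) with Kcnj15 (0.04), Kcnk5 (0.08) with Kcnk16 (0.03), and Kcnj5 (-0.07) with Kcnj1 (0.05), and differences between neighbours were not tested.

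Marker genes of cell types and regions moved with side as well. The score of 7 neocortical layer genes was 9.34 to 9.60 ipsilaterally and 10.09 to 10.33 contralaterally, with 4 called lower (Cux2, Rorb, Lamp5 and Tbr1) and 1 higher (Bcl11b), while that of 8 neuronal genes was 13.04 to 13.80 ipsilaterally and 13.58 to 13.78 contralaterally, with 3 called lower (Rbfox3, Nefl and Nefm). The scores of 6 striatal genes (6.82 to 8.19 ipsilaterally, 6.51 to 6.91 contralaterally; 0 called) and 4 hippocampal genes (9.02 to 10.32 and 8.94 to 9.33; Wfs1 called higher) were higher on average ipsilaterally. No marker of thalamus (scores 6.90 to 7.46 ipsilaterally, 6.70 to 8.06 contralaterally), endothelium (8.85 to 9.51 and 9.02 to 9.41) or oligodendrocyte precursors (7.64 to 7.96 and 7.54 to 7.70) was called. The part of cell type or region in the falls of Kcnt2, Kcnk4, Kcnj9, Kcnj11 and Kcnk1 was not tested. These 5 falls passed under all 21 alternatives run, and none of the 11 called genes changed sign in any of them.

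Groups that did not overlap were found for 9 of the 41 genes (22.0%), against 7.25% of all genes, and these were 7 called genes with Kcnj6 and Kcnn1. At an unadjusted p under 0.05, 19 of the 41 genes (46.3%) differed, against 21.3% of all genes. The median SD within a side was 0.185 ipsilaterally and 0.145 contralaterally, and 24 of the 41 genes varied more ipsilaterally.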

How the data were processed

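The authors deposited log2 signals for 10 arrays. Their software was Transcriptome Analysis Console 4.0, as named in the submitters' processing notes. Deposited values ran from 1.97 to 19.93, which fits a log2 scale. Genome build, background correction and normalization: not given in the sources used here. Array medians were 4.79 to 4.84 ipsilaterally and 4.71 to 4.77 contralaterally, so an offset between arrays cannot be told apart from side. The number of arrays limits the precision. The labels call the samples biological replicates but do not tie a number to an animal, and no scan date or batch was given.

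Of 65956 rows, 30604 named 1 gene symbol. Symbols were updated by Entrez identifier from RefSeq (GRCm38.p6), and the brightest row per gene over 10 arrays was kept, giving 30142 genes. Ipsilateral minus contralateral was fitted with limma 3.58.1 (R 4.3.3, lmFit and eBayes, no covariates). Differences within 15 pairs were tested by exact two-sided permutation over 252 splits. Values in every array are given for called genes and for the strongest gene of a subfamily without one (Kcnj2), with others added after their values were seen. Called genes of each partner or marker list are named, or the 2 strongest, and some uncalled genes outside this rule are named too. Marker lists with no called gene are given as scores. The fit was tested on simulated data. The members, lists and pairs were chosen with earlier results of these data known. Alternatives are in the closing section, and sequences came from RefSeq.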

Additional observations from a re-analysis of the deposited data

Results flagged for a closer look

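In 7 of 82 groups of 5 arrays (41 genes on 2 sides), 1 array stood apart from the other 4 by more than Dixon's 95% critical value, where chance flags about 1 group in 20. Contralateral array 4 accounted for 4 of them. It stood at 7.07 for Kcnj11 (the others 7.49 to 7.60), 9.39 for Kcnk2 (8.96 to 9.07), 6.21 for Kcnmb2 (6.02 to 6.07) and 8.66 for Kcnn3 (7.65 to 7.94). The same array had a thalamic marker score of 8.06, the other contralateral arrays 6.70 to 7.18, and an oligodendrocyte marker score of 10.20, the others 11.20 to 11.64. Ipsilateral array 1 stood at 8.06 for Kcnk12 (7.23 to 7.39) and 5.09 for Kcnj12 (4.74 to 4.84). It also stood apart in partner and marker genes, at 14.65 for the inhibitory neuron gene Gad1 (the other ipsilateral arrays 11.72 to 12.35), 9.35 for the muscarinic receptor Chrm2 (6.59 to 7.35), 9.98 for the BK gamma subunit Lrrc55 (6.11 to 7.21) and 8.07 for the upper-layer gene Cux2 (7.56 to 7.65). Its neuronal marker score, 13.80, was the highest of the ipsilateral arrays. The part of these differences in the values of Kcnj4 and Kcnk12 was not tested. Contralateral array 1 stood at 4.53 for Kcnn4 (4.34 to 4.38), within the range of the dim receptor and keratin-associated genes.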

How the results depend on the processing

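The count of the 41 genes called lower was 6 to 10 and that called higher 0 to 2 when each array was left out in turn (9 and 2 with all arrays). Leaving out arrays 2 and 4 of each side, an alternative that was chosen after seeing the data and kept 3 arrays a side, 5 were lower and 1 higher, and over all genes 289 were lower and 77 higher, with 7 partner and marker genes called instead of 18. Fitting replicate number as a fixed block gave 0 of the 41 genes higher (adjusted p of Kcnj16 0.0529 and of Kcnn3 0.0569 in limma). The fall of Kcnma1 also did not pass there (0.115). That fit called 177 higher and 769 lower over all genes. As a random block, replicate number changed no call among the 41 genes. Across all genes, same-numbered arrays did not in general deviate together (correlations from -0.40 to 0.26, above 0.1 for 2 of 5 numbers). Of the 5 ipsilateral arrays, 1 was best matched by its own number. Kcnj13 and the choroid plexus score were nevertheless high on the arrays numbered 2 and 4 of both sides. These values do not settle whether a number marks 1 animal, and the fit as reported did not pair the arrays. Over all genes, 369 were higher and 1305 lower in the fit as reported, 111 to 760 and 740 to 1607 when single arrays were left out. Centring each array on its median gave 232 higher (8.13% of calls, against 22.0%) and 2623 lower, and 1 of the 41 genes higher and 12 lower, with Kcnj6 (adjusted p = 0.0338), Kcnn1 (0.0185) and Kcnn2 (0.0187) past the threshold. Quantile scaling ended the calls of Kcnj3 (0.0664) and Kcnma1 (0.139) and added Kcnn1 (0.0308). Array weights gave 656 genes higher, and testing every row left 1 of the 41 genes higher. Of the 15 pair differences, 6 passed, and 3 with quantile scaling, 0 to 8 when single arrays were left out. The smallest p that the exact permutation test allows, 0.00794, is the same with all arrays and with a single array left out. The adjusted p also depends on the other pairs, so a lost call need not mark a change in that pair's own p. With sign flips over replicate numbers as the block, 0 passed, since the smallest p that 5 pairs allow is 0.0625. The cause of these shifts was not tested. Partner and marker genes called numbered 13 to 26 when single arrays were left out.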
